A study of Homo sapiens with 414 samples.

Results

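The genes described here are 26 genes of cholesterol synthesis and sterol handling, out of 36135 genes in the deposited count table. They were chosen by name, from the enzymes of the pathway and the proteins that sense, move or store its product, and each was found by its Ensembl identifier. Earlier results of these data were known when they were chosen, so comparisons of the members with all genes are descriptions. The cells were LNCaP, an androgen-responsive line grown from a human prostate carcinoma. Control cells received a Dharmacon siRNA that targets no gene, and knockdown cells an IDT siRNA against SULT2B1. Only 1 siRNA against SULT2B1 is named and the arms differ in supplier, so the supplier and the target cannot be told apart. Cells were harvested 48 h after transfection in 3 batches that each held both arms, and were captured singly on a Fluidigm C1 chip for RNA sequencing. The control arm held 76, 66 and 67 cells in batches 1, 2 and 3, and the knockdown arm held 66, 65 and 61. Reads were summed over the cells of an arm and batch into 6 libraries of 71630108 to 84359044 reads in genes, and a batch was the replicate (n = 3 per arm). Whether a batch was a culture of its own is not stated, and every p-value below therefore reflects batch-to-batch spread that may be technical.

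Cells make cholesterol from acetyl-CoA by way of mevalonate, farnesyl diphosphate, squalene and lanosterol, and farnesyl diphosphate also feeds the isoprenoids that anchor proteins in membranes. The supply is sensed in the endoplasmic reticulum. When sterol is scarce, SCAP carries the membrane-bound factor encoded by SREBF2 to the Golgi, where it is cut free to switch on genes of the pathway, and when sterol is plentiful the INSIG proteins hold SCAP back. SULT2B1 adds sulfate to cholesterol and to oxysterols, some of which act on this sensing step and on the LXR receptors, and prostate epithelium uses cholesterol for membranes and as the parent of steroids.

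SREBF2's protein binds a short sequence, the sterol regulatory element, often next to a CCAAT box bound by NF-Y, and promoter windows of 5 members are shown to make those letters visible. The 250 bases before the RefSeq start (GRCh38.p14) were searched on both strands for CACCCCAC, for its looser form CACCNNAC, which contains it, and for CCAAT. A window was found for 23 of the 26 members. CACCCCAC stood in the window of 1 member, SREBF2, and in 2.97% of all 27305 genes with a window. CACCNNAC stood in 5 members (DHCR7, HMGCS1, HSD17B7, INSIG1 and SREBF2) and in 12.2% of all genes, and CCAAT stood in 18 members and in 37.0% of all genes. Stretches annotated as untranslated exon were left out, except for sites of 30 bases in HMGCS1 and TM7SF2. Capitals mark matches on either strand.
SREBF2, chr22:41832855-41833078, plus strand: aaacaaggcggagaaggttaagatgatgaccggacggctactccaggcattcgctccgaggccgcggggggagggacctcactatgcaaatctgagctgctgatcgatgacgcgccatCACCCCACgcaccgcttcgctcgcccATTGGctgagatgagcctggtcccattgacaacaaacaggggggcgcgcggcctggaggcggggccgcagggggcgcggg
INSIG1, chr7:155297628-155297775, plus strand: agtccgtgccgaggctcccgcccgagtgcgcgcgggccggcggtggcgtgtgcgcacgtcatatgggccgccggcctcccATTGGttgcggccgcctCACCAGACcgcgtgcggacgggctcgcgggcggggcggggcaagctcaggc
INSIG2, chr2:118088221-118088451, plus strand: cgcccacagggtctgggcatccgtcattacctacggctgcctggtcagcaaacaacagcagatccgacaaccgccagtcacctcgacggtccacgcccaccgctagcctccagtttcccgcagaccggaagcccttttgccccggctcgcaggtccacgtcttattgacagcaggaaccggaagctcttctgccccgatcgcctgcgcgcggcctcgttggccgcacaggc
HMGCS1, chr5:43313441-43313470, minus strand: gcggtgccggaGTCGGGTGggttggcggct
TM7SF2, chr11:65111787-65111816, plus strand: cccgagcgccgATTGGctggtgtgctgggc
In SREBF2 the element began 132 bases before the start with an inverted CCAAT box at 106, and in INSIG1 the looser element began at 153 with an inverted CCAAT box at 170. No match to the 3 motifs was found in the INSIG2 window, which says only that these letters are not there. A match is a description of the sequence and not evidence of binding in these cells.

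SULT2B1, the target, was at 2.07, 1.49 and 4.28 CPM (counts relative to library size, with the TMM scaling of edgeR) in control batches 1, 2 and 3 and at 0.162, 0.284 and 0 CPM in knockdown. Every knockdown library lay below every control library, with an adjusted p of 0.268 by edgeR and 0.0125 by DESeq2.

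Of the 26 sterol genes, 4 were higher in every knockdown library than in any control library: TM7SF2, NSDHL, DHCR7 and CYP51A1, all enzymes between squalene and cholesterol. The share of all tested genes with that pattern was 10.5%. INSIG2, which restrains the pathway, and NPC1, which moves cholesterol out of lysosomes, were lower in every knockdown library than in any control library, a pattern held by 10.1% of all genes. In batch 3 most members were higher in knockdown than in control, while in batches 1 and 2 they were mixed. None of the 26 passed the test between the arms. By edgeR's quasi-likelihood test with Benjamini-Hochberg adjustment over 20326 genes, 0 of 26 members were past an adjusted p of 0.05, against 158 genes or 0.777% of all tested. At an unadjusted p under 0.05 there were 4 members (TM7SF2, NSDHL and DHCR7 higher, INSIG2 lower), against 13.5% of all genes. DESeq2 called 1 member, TM7SF2, against 8.83% of all genes with an adjusted p. The median log2 fold change, knockdown over control, was 0.18 over the members and 0.01 over all tested genes, with 16 of 26 members above 0. Without either library of batch 3 the members' median was 0.08. Standard errors of the members ran from 0.123 to 0.863 on the log2 scale, so with 3 libraries per arm small differences were not detectable.

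**Figure D1:**
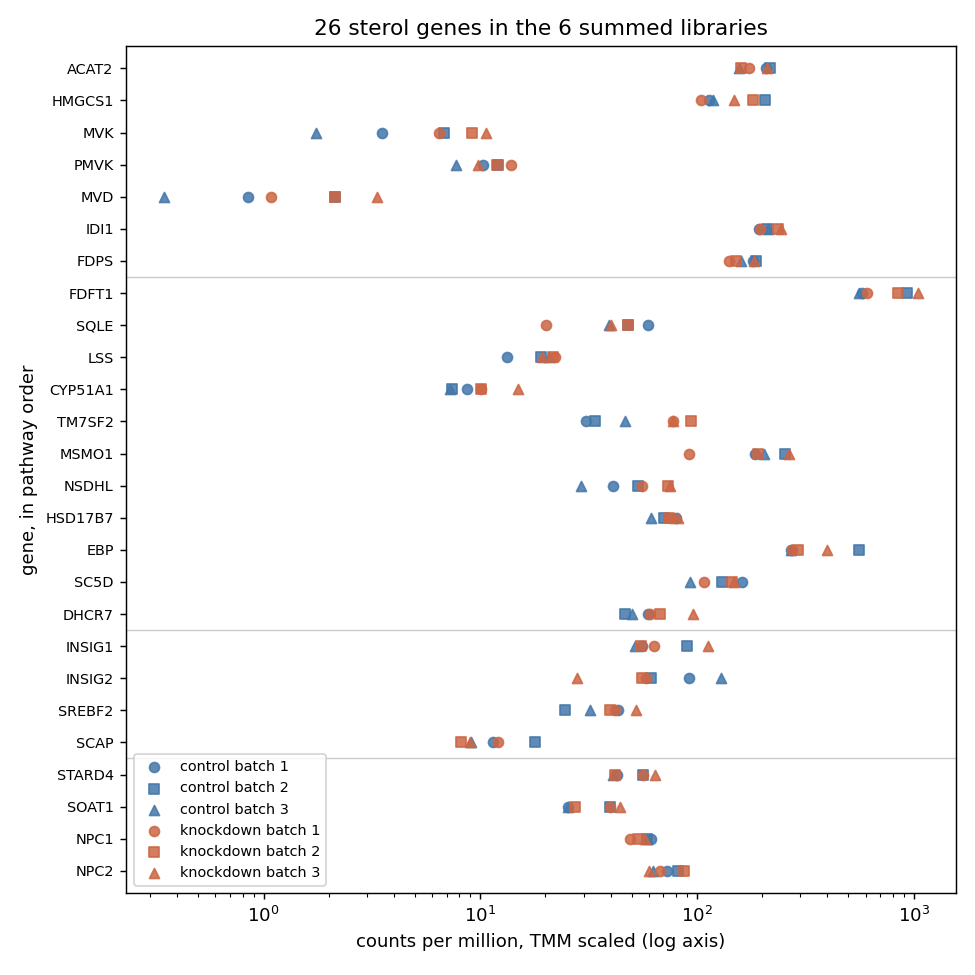
Level of each of the 26 genes (CPM, log axis) in the 6 summed libraries, in pathway order, with control in blue and knockdown in orange and the batches as circles, squares and triangles. The arms stand apart for TM7SF2, NSDHL, DHCR7, CYP51A1, INSIG2 and, narrowly, NPC1, and interleave for the rest.

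The first enzymes, from acetyl-CoA to farnesyl diphosphate, showed no difference past the threshold (7 of 7 genes, adjusted p 0.443 to 0.992, edgeR). MVK, mevalonate kinase, was at 3.52, 6.82 and 1.75 CPM in control batches 1, 2 and 3. In knockdown it was at 6.46, 9.13 and 10.7 CPM. Knockdown was higher within each batch, but control batch 2 lay above knockdown batch 1, so the arms overlapped. The log2 fold change was 1.12 (SE 0.542, edgeR adjusted p = 0.443), and without control batch 2 it was 1.73 with an adjusted p of 0.275. MVK shares 306 exon bases with MMAB on the other strand, which had 32212 reads against 3001 for MVK. MVD, the decarboxylase that makes isopentenyl diphosphate, was the scarcest member, at 0.844, 2.15 and 0.348 CPM in control and 1.09, 2.13 and 3.34 CPM in knockdown. Its highest and lowest libraries were the knockdown and control libraries of batch 3. One cell supplied between 32.3% and 48.1% of the MVD reads of each library.

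The abundant enzymes of this segment varied less. IDI1, the isomerase of isopentenyl diphosphate, was at 194, 210 and 212 CPM in control and 195, 237 and 245 CPM in knockdown, a log2 fold change of 0.13 (SE 0.123). The knockdown values exceeded the control value of the same batch each time, by 0.01, 0.17 and 0.21 on the log2(CPM + 1) scale, and the arms overlapped. FDPS, which makes farnesyl diphosphate, was at 182, 188 and 159 CPM in control and 140, 151 and 184 CPM in knockdown. It was lower in knockdown in batches 1 and 2 and higher in batch 3. HMGCS1, the synthase that condenses acetyl-CoA with acetoacetyl-CoA, and ACAT2, the thiolase before it, had the same order, lower in knockdown in batches 1 and 2 and higher in batch 3. HMGCS1 was at 113, 206 and 118 CPM in control and 104, 181 and 148 CPM in knockdown. ACAT2 was at 208, 218 and 156 CPM in control and 174, 160 and 211 CPM in knockdown. PMVK, phosphomevalonate kinase, lay between 7.74 and 13.9 CPM in all 6 libraries with overlapping arms.

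Between squalene and cholesterol, TM7SF2 stood farthest apart. It encodes a sterol reductase that acts on the product of CYP51A1. TM7SF2 was at 30.8, 34.0 and 46.7 CPM in control batches 1, 2 and 3 and at 77.8, 94.2 and 77.9 CPM in knockdown. The lowest knockdown library was well above the highest control library. The means were 37.2 ± 8.44 and 83.3 ± 9.41 CPM (SD, n = 3), which is 1.16 on the log2 scale (SE 0.206). The edgeR p was 0.000662 before and 0.0619 after adjustment, just outside the threshold. The adjusted p was 8.28e-06 with DESeq2, edgeR with no filter on low counts gave 0.0229, and the fit with batch as a replicate block gave 0.164. Within batches the difference was 1.31, 1.44 and 0.73 on the log2(CPM + 1) scale. The middle cell showed the same order: the median over single cells was 11.3, 13.4 and 30.9 CPM in control and 51.2, 82.4 and 59.3 CPM in knockdown. No single cell supplied more than 11.4% of TM7SF2 reads in a library. The gene (chromosome 11, 65111845 to 65116384, plus strand, GENCODE 29 on GRCh38) begins within the last exon of VPS51 on the same strand, and the 2 share 16 exon bases. VPS51 itself had a log2 fold change of -0.14 (SE 0.319).

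LBR, the lamin B receptor, carries the same reductase activity as TM7SF2 in the nuclear envelope and is not one of the 26. It was at 168, 141 and 154 CPM in control and 122, 86.1 and 105 CPM in knockdown, lower in each knockdown library than in any control library. Its log2 fold change was -0.57 (SE 0.160), with an adjusted p of 0.178 by edgeR and 0.0388 by DESeq2. The 2 genes for this step thus lay on opposite sides of 0.

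NSDHL and DHCR7 were the other enzymes at an unadjusted p under 0.05. NSDHL, a dehydrogenase that helps strip methyl groups from the sterol ring, was at 40.9, 53.5 and 29.2 CPM in control and 55.8, 73.4 and 74.9 CPM in knockdown. Its arms did not overlap, although control batch 2 and knockdown batch 1 were close. The log2 fold change was 0.72 (SE 0.253), with an edgeR p of 0.0234 before and 0.272 after adjustment. DHCR7, the reductase of the last step of one branch, was at 59.5, 46.6 and 50.02 CPM in control and 60.5, 67.8 and 95.7 CPM in knockdown. Control batch 1 and knockdown batch 1 were nearly equal, and knockdown batch 3 was the highest of the 6. The log2 fold change was 0.52 (SE 0.215, edgeR p = 0.0440, adjusted 0.350), and it was 0.30 without knockdown batch 3.

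CYP51A1, the lanosterol demethylase, was scarce at 8.67, 7.44 and 7.28 CPM in control and 10.1, 10.1 and 14.9 CPM in knockdown. All 3 knockdown libraries lay above the controls, and the log2 fold change of 0.59 (SE 0.302) had an edgeR adjusted p of 0.476. In GENCODE 29 a gene on the same strand shares 79.4% of the exon bases of CYP51A1. No reads were found for that gene, which may have no row in the count table. In addition, 3 pseudogenes carry the name of CYP51A1, so its counts are uncertain.

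**Figure D2:**
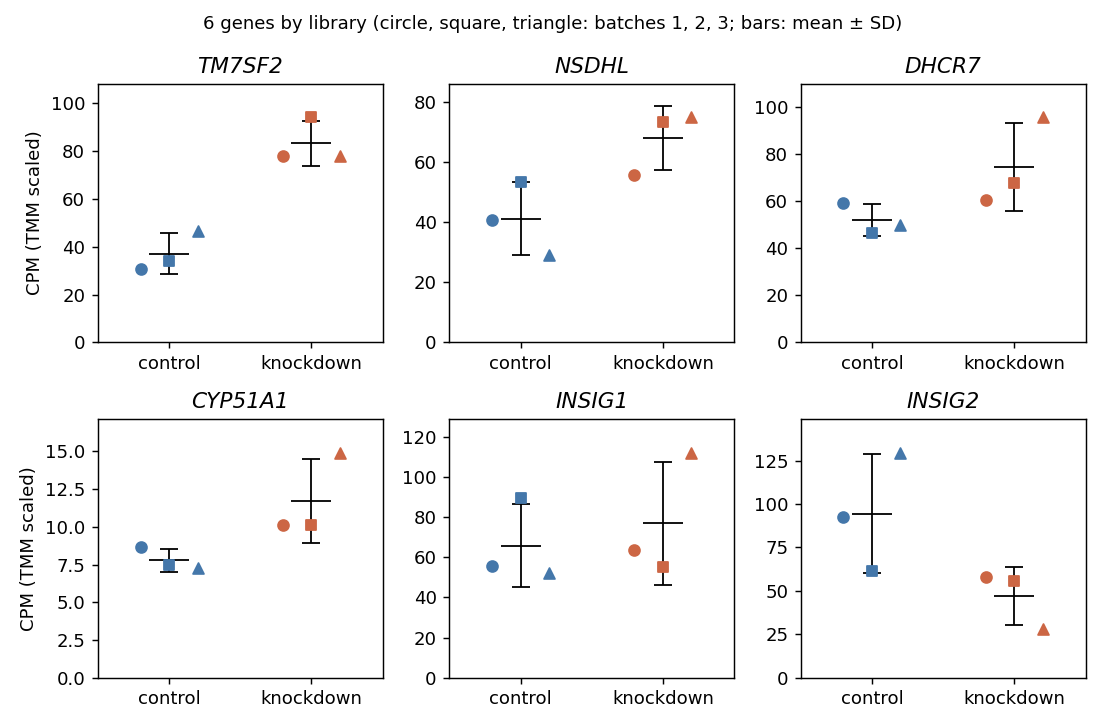
CPM of 6 members in each library, control in blue and knockdown in orange (circle, square and triangle for batches 1, 2 and 3), with the mean and SD of each arm in black and axes from 0. TM7SF2, NSDHL, DHCR7 and CYP51A1 are higher in all 3 knockdown libraries, INSIG2 is lower in all 3, and INSIG1 overlaps, with knockdown batch 3 the highest.

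The remaining 7 enzymes of this segment overlapped between the arms. FDFT1, squalene synthase, was the most abundant member at 575, 930 and 557 CPM in control and 612, 851 and 1045 CPM in knockdown. Control batch 2 and knockdown batches 2 and 3 were the high libraries. EBP, a sterol isomerase, was at 270, 562 and 271 CPM in control and 274, 292 and 400 CPM in knockdown, so that a single control library, batch 2, set both its highest value and its negative fold change. Without control batch 2 the log2 fold change of EBP was 0.25 instead of -0.19.

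SQLE, which puts the oxygen on squalene, was at 59.7, 47.8 and 39.4 CPM in control and 20.02, 47.8 and 40.1 CPM in knockdown. Only knockdown batch 1 was low, and batches 2 and 3 were level. MSMO1, the methylsterol oxidase, was also lowest in knockdown batch 1, at 91.9 CPM against 184 CPM in control batch 1. LSS, lanosterol synthase, lay between 13.3 and 22.2 CPM, HSD17B7, a ketosteroid reductase of the pathway, between 61.6 and 82.2 CPM, and SC5D, a sterol desaturase, between 92.6 and 161 CPM. Their log2 fold changes were 0.25, 0.13 and 0.06, all smaller than their standard errors of 0.25, 0.152 and 0.227.

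Among the sensing genes, the 2 INSIG genes moved differently with batch. INSIG2 was at 92.3, 61.3 and 129.5 CPM in control batches 1, 2 and 3 and at 58.1, 55.6 and 28.1 CPM in knockdown. Batch 3 held both the highest control library and the lowest knockdown library, while control batch 2 was only just above knockdown batches 1 and 2. The log2 fold change was -0.999 (SE 0.358), with an edgeR p of 0.0257 before and 0.285 after adjustment. Within batches the differences were -0.66, -0.14 and -2.17 on the log2(CPM + 1) scale. Leaving out knockdown batch 3 gave a log2 fold change of -0.73 and leaving out control batch 3 gave -0.71.

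INSIG1, itself a target of SREBP, was at 55.9, 89.7 and 52.0 CPM in control and 63.5, 55.2 and 112 CPM in knockdown. Knockdown was higher in batches 1 and 3 and lower in batch 2, by 0.18, 1.10 and -0.69, and the arms overlapped. The log2 fold change of 0.23 (SE 0.327) became -0.15 without knockdown batch 3.

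SREBF2 was at 43.1, 24.7 and 32.1 CPM in control and 42.1, 39.8 and 52.4 CPM in knockdown. The 3 highest values included control batch 1, so the arms overlapped, and the log2 fold change was 0.43 (SE 0.249, edgeR adjusted p = 0.539). An antisense gene, SREBF2-AS1, shares 280 exon bases with SREBF2 and had a log2 fold change of 0.24 (SE 0.346). It had 21275 reads against 18274 for SREBF2. Among other members with partners on the other strand, ACAT2 shares 397 exon bases with TCP1, which had 321147 reads against 87154 for ACAT2. ACAT2 also shares 1141 with SOD2 and 1458 with SOD2-OT1. No reads were found for those 2 genes, which may have no row in the count table. FDPS shares 693 with RUSC1-AS1, HMGCS1 703 with AC114947.2 and IDI1 643 with IDI2-AS1. Pseudogenes carry the names of FDPS (8) and HSD17B7 (2). The strand setting of the counting is not given in the sources used here, so the reads of partners that share exon bases cannot be told apart. SCAP was scarce, between 8.12 and 17.9 CPM, and its log2 fold change was -0.40 (SE 0.352). That value rested on control batch 2, without which it was -0.08, and the differences within batches 1, 2 and 3 were 0.07, -1.05 and -0.01.

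The 4 transport and storage genes had log2 fold changes from -0.16 to 0.30. NPC1 was at 61.1, 58.8 and 58.9 CPM in control and 48.9, 53.6 and 57.4 CPM in knockdown. The arms did not overlap, but the nearest libraries differed by less than the spread of the knockdown arm, and the edgeR adjusted p was 0.738. NPC2, which hands cholesterol to NPC1 inside lysosomes, lay between 59.8 and 87.3 CPM with overlapping arms.

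STARD4, a soluble carrier of cholesterol, was at 42.6, 56.2 and 40.8 CPM in control and 56.6, 41.7 and 64.2 CPM in knockdown. SOAT1, which esterifies cholesterol for storage, was at 25.5, 39.8 and 25.3 CPM in control and 39.7, 27.4 and 44.3 CPM in knockdown. Both were higher in knockdown in batches 1 and 3 and lower in batch 2.

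The batch 3 difference was then examined, the extent to which knockdown minus control in batch 3 departs from that in batches 1 and 2. Within batch 3, 21 of 26 members were higher in knockdown, with a median of 0.50 on the log2(CPM + 1) scale. In batches 1 and 2 the counts were 15 and 11 of 26, with medians of 0.02 and -0.01. Over all tested genes 50.3%, 50.7% and 49.8% were higher in knockdown in batches 1, 2 and 3. The exceptions in batch 3 were INSIG2, LSS, NPC2, NPC1 and SCAP, of which INSIG2 alone was below by more than 0.1.

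**Figure D3:**
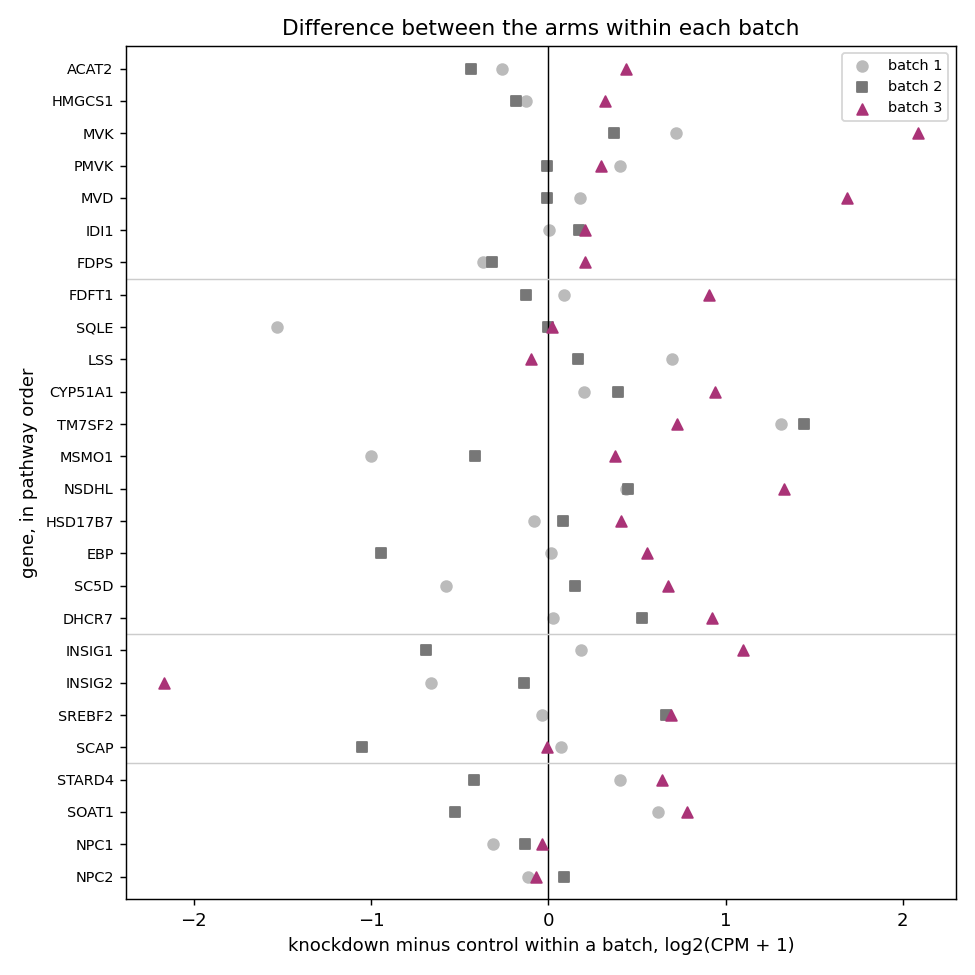
Knockdown minus control within batches 1 (light grey circles), 2 (dark grey squares) and 3 (purple triangles) for each of the 26 genes, on the log2(CPM + 1) scale, with a line at 0. The batch 3 points lie to the right of 0 for 21 genes, and INSIG2 lies farthest to the left at -2.17.

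All 7 genes from acetyl-CoA to farnesyl diphosphate were higher in knockdown in batch 3, as were 10 of the 11 from squalene to cholesterol, 2 of the 4 sensing genes and 2 of the 4 transport genes. The fitted batch 3 difference was above 0 for 22 of 26 members, with a median of 0.66. Over all tested genes 50.3% were above 0, with a median of 0.00. The shift was not particular to the members. Among the lists of adjoining pathways described below, fatty acid synthesis and desaturation had 9 of 12 genes above 0, with a median of 0.38. The medians of the other lists ran from -0.78 to 0.15. No member passed: by edgeR's test of the interaction term, 0 of 26 had an adjusted p under 0.05, as did 0.0% of all genes, and the lowest adjusted p of a member was 0.986. At an unadjusted p under 0.05 there were 3 members, against 4.48% of all genes. These were INSIG2, with a difference of -1.77 (SE 0.462, p = 0.0107), ACAT2, with 0.79 (SE 0.263, p = 0.0270), and INSIG1, with 1.40 (SE 0.504, p = 0.0360), each before adjustment. The largest value belonged to scarce MVD, at 3.15 (SE 1.72). The other negative differences were those of TM7SF2 at -0.67 (SE 0.390), LSS at -0.53 (SE 0.588) and NPC2 at -0.07 (SE 0.394), each within 2 standard errors of 0. TM7SF2 was higher in knockdown in all 3 batches, by the least in batch 3. DESeq2 was not run on this difference.

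In both arms batch 3 stood at one end of the 3 batches for many members. Control batch 3 was the lowest control library for 16 of 26 members, and knockdown batch 3 was the highest knockdown library for 18 of 26. Over all tested genes these shares were 31.7% and 32.6%. Control batch 2 was the highest control library for 15 of 26 members. The summed level of the 26 genes was 2407, 3424 and 2437 CPM of library total in control and 2498, 3091 and 3557 CPM in knockdown. By this sum, control batch 2 and knockdown batches 2 and 3 were the high libraries and the arms overlapped. Control batch 3, at 2437 CPM, was close to control batch 1, at 2407 CPM, so the sum did not set it apart as low. The knockdown library of batch 3 also had the highest median number of reads per cell of the 6, 1406270, and of genes with a read per cell, 9045. Its part in the result was not tested. Cells with over 20% mitochondrial reads numbered 21, 8 and 6 in control batches 1, 2 and 3, and 6, 0 and 2 in knockdown. Without those cells the median batch 3 difference of the members was 0.61, with 23 of 26 above 0.

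**Figure D4:**
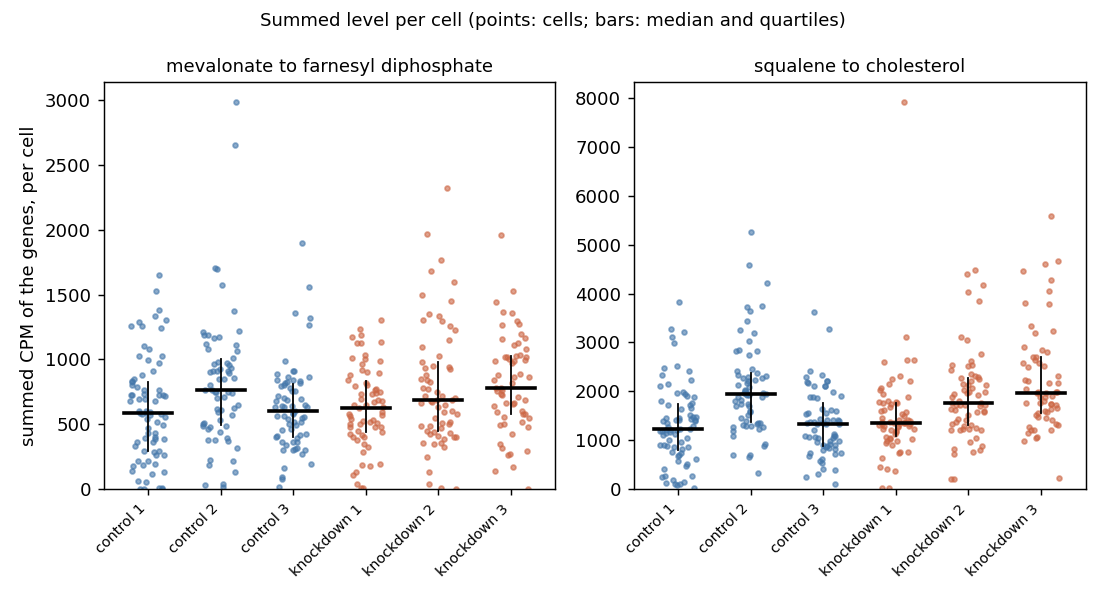
Summed CPM per cell of the 7 genes from acetyl-CoA to farnesyl diphosphate (left) and the 11 from squalene to cholesterol (right) in each library, with each point a cell and black bars at the median and quartiles. The medians on the right are 1228, 1947 and 1327 in control batches 1, 2 and 3 and 1354, 1766 and 1959 in knockdown, and cells of all libraries overlap.

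Detection per cell gives each cell equal weight. FDFT1 had a read in 401 of 401 cells, whereas MVD had one in between 17.1% and 45.9% of the cells of a library. The share of cells that held any read was higher in every knockdown library than in any control library for HSD17B7, DHCR7 and STARD4, 3 of 26 members, a pattern held by 15.9% of the 16642 genes compared. No member was lower throughout, against 6.48% of those genes. The STARD4 shares were 47.4%, 53.0% and 53.7% in control and 72.7%, 67.7% and 63.9% in knockdown. Exact 95% Clopper-Pearson intervals ran from 35.8 to 59.2% for the lowest of these and from 60.4 to 83.0% for the highest, and such intervals cover counting error only. The STARD4 means were 51.4% ± 3.49 and 68.1% ± 4.41 (SD, n = 3), a description of a gene picked out because its shares did not overlap. Its summed CPM did not separate the arms, and 1 cell held 40.0% of the STARD4 reads of control batch 2.

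Reads per cell differed between libraries, so each cell was also thinned to 100000 reads. TM7SF2 then had a read in 60.6% ± 9.86 of cells in control and 85.3% ± 8.70 in knockdown, without overlap, against 83.9% ± 5.33 and 94.4% ± 5.67 unthinned, with overlap (SD, n = 3). After thinning, 6 members were higher throughout (CYP51A1, TM7SF2, NSDHL, HSD17B7, SREBF2 and STARD4) and 1 was lower (SQLE, 52.3% ± 2.27 against 46.9% ± 0.901). Over all genes the shares with such patterns were 14.6% and 7.94%. DHCR7 was not among the 6, with 63.0% ± 6.56 and 75.3% ± 10.9. With at least 5 reads required, 6 members were higher throughout (PMVK, CYP51A1, TM7SF2, HSD17B7, DHCR7 and STARD4), against 16.4% of all genes, and 0 were lower, against 7.04%. Without cells over 20% mitochondrial reads, HSD17B7, DHCR7 and STARD4 were higher throughout, against 10.04% of all genes, and SC5D and NPC2 were lower, against 10.8%.

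INSIG2 separated the arms in CPM but not in detection. It had a read in 64.5%, 59.1% and 86.6% of control cells and 74.2%, 67.7% and 44.3% of knockdown cells. In batches 1 and 2 the knockdown share was the higher, and only batch 3 had the opposite order, with intervals of 76.0 to 93.7% in control and 31.5 to 57.6% in knockdown. The median cell of knockdown batch 3 had 0 CPM of INSIG2, and 1 cell held 23.3% of that library's INSIG2 reads.

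Levels were compared between genes per kilobase of annotated exon. EBP, at 153 ± 69.8 CPM per kb in control, and FDFT1, at 132 ± 40.5, were the highest and did not differ beyond their spread. MSMO1 followed at 74.4 ± 12.8. FDPS, IDI1 and ACAT2 were alike at 47.4 ± 4.05, 47.3 ± 2.27 and 45.1 ± 7.74 CPM per kb. TM7SF2 stood at 10.9 ± 2.48 in control and 24.4 ± 2.76 in knockdown, next to DHCR7 at 12.5 ± 1.60 and 18.0 ± 4.47. The 2 genes lay within their spread of each other in control, and TM7SF2 was the higher in knockdown. At the low end were LSS, CYP51A1 and SCAP, from 1.99 to 2.45 CPM per kb, then MVK at 0.622 ± 0.397 and MVD at 0.236 ± 0.197 (SD, n = 3).

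Across cells, members varied together weakly. For the 19 members with a read in at least 50% of the cells of each library, the Spearman correlation of log2(CPM + 1) was taken within each library and averaged over the 6. The median over 171 pairs was 0.13, against 0.07 over pairs of the 6560 genes detected as widely. All 19 also correlated with the number of genes detected in a cell, by 0.11 to 0.30, so the values are a description and not a finding. The pairs FDPS with EBP and FDPS with FDFT1 were highest at 0.32 each, and HMGCS1 with IDI1 stood at 0.31. TM7SF2 had the lowest median with the other members, 0.06, and its pair with EBP was the lowest of all at -0.12.

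Genes of adjoining pathways were examined in 8 lists of 79 genes, of which 72 could be tested. By edgeR 0 of 72 passed, against 0.777% of all genes, and 13 had an unadjusted p under 0.05, against 13.5%. DESeq2 called 8, against 8.83%. In fatty acid synthesis and desaturation, the other arm of SREBP control, 4 of 12 fitted values were above 0. ACLY, which supplies cytosolic acetyl-CoA, was at 495, 394 and 411 CPM in control and 270, 271 and 259.5 CPM in knockdown, without overlap. Its log2 fold change was -0.70 (SE 0.116, edgeR adjusted p = 0.0517, or 0.142 with the replicate block, DESeq2 7.36e-05). ELOVL5, a fatty acid elongase, was also lower throughout, at -0.79 (SE 0.188, edgeR adjusted p = 0.126, DESeq2 0.0111). Of 9 genes of SREBP processing 0 had an unadjusted p under 0.05, and PAQR3, which holds SCAP at the Golgi, came nearest with 0.30 (SE 0.214). Of 7 LXR receptors and targets, likewise 0 did. MYLIP stood at 0.59 (SE 0.278), and ABCA1, the cholesterol exporter, at -1.29 (SE 0.882), with control values spread from 1.77 to 32.3 CPM.

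The other 5 lists held genes on both sides of 0. GRAMD1C, which moves sterol between membranes, was at 8.17, 10.95 and 12.6 CPM in control and 39.5, 20.2 and 20.4 CPM in knockdown, a log2 fold change of 1.34 (SE 0.350, edgeR adjusted p = 0.150, DESeq2 0.00522). LIPA, the lysosomal lipase that frees cholesterol from its esters, stood at 0.53 (SE 0.193, edgeR adjusted p = 0.289) with knockdown higher throughout. POR, the electron donor of CYP51A1 and SQLE, stood at 0.52 (SE 0.274). In the isoprenoid branches TRIT1, which modifies transfer RNA, stood at -0.62 and PDSS2, of the ubiquinone side chain, at 0.47. CYP39A1, an oxysterol hydroxylase, stood at 0.97 (SE 0.285, DESeq2 adjusted p = 0.0144), and CYP46A1, which hydroxylates cholesterol, at -0.61 (SE 0.484). STS, the sulfatase that reverses steroid sulfation, was at 5.02, 6.09 and 3.86 CPM in control and 9.63, 7.51 and 34.7 CPM in knockdown, with the high value in batch 3 alone (log2 fold change 1.79, SE 0.614, edgeR adjusted p = 0.260, DESeq2 0.0387).

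The label of the cells was checked against markers. All 9 luminal prostate markers had reads, with summed levels of 4854 to 6772 CPM in control and 4025 to 5604 CPM in knockdown. Most of that sum was STEAP2. Of the other 8 markers, 3 were lower and 2 higher in each knockdown library than in any control library. Over all tested genes, 10.1% were lower and 10.5% higher in this way. These 5 markers are named after their values were seen. KLK3, prostate specific antigen, fell from 798 ± 200.03 to 280.35 ± 70.95 CPM (SD, n = 3; edgeR adjusted p = 0.0416). KLK2, a related kallikrein, fell from 109 ± 16.9 to 45.6 ± 8.57 CPM (SD, n = 3; edgeR adjusted p = 0.0446). Neither kept an adjusted p under 0.05 when any 1 library was left out (0.0612 to 0.160 for KLK3 and 0.0931 to 0.153 for KLK2). With batch as a replicate block, the edgeR adjusted p was 0.154 for KLK3 and 0.0703 for KLK2. TMPRSS2 was lower in each knockdown library than in any control library (log2 fold change -1.40, edgeR adjusted p = 0.142), while the keratins KRT8 (0.81, adjusted p = 0.0930) and KRT18 (0.61, adjusted p = 0.0641) were higher in each. The part of these differences in the sterol gene values was not tested. The 3 basal markers together reached at most 1.21 CPM, and the 3 blood and endothelial markers with values at most 0.649 CPM. KRT5, KRT14, TP63, CHGA, SYP, COL1A2, PTPRC, CD68 and PECAM1 each lay under 1 CPM in every library. The summed neuroendocrine markers were 7.24 to 18.6 CPM in control and 5.42 to 7.16 CPM in knockdown, nearly all from ENO2, and the mesenchymal markers 4.96 to 12.4 CPM and 2.27 to 9.28 CPM.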

How the data were processed

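Single LNCaP cells were sequenced after control or SULT2B1 siRNA. The deposited values are raw whole-number counts, 1 column for each cell, made without molecular identifiers. Intervals on shares of cells cover counting error only, since the cells of a library are not replicates. The authors worked with edgeR 3.2.2, HTSeq 0.6.1, TopHat2 2.1.0 and FastQC 0.11.3 on build GRCh38.p3, per the submitters' processing notes. How these were ordered, the annotation release and the strand setting were not given in the sources used here. Capture sites with more than 1 cell were removed under the microscope, per the labels' protocols, and no doublet caller was run. Of 414 samples, the 401 labelled single cells with a matching column were used, and 4 columns of values were not used.

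Counts were summed per arm and batch and fitted with edgeR 4.0.16 (robust quasi-likelihood test, TMM scaling, filterByExpr; limma 3.58.1, R 4.3.3), without covariates, adjusting by Benjamini-Hochberg over 20326 genes with a threshold of 0.05. The common dispersion was 0.497. DESeq2 1.42.0 was an alternative. The batch 3 difference is the interaction of arm with batch 3 (2 residual degrees of freedom). Differences within a batch are of log2(CPM + 1). Each SE was taken as the absolute log2 fold change over the square root of edgeR's F statistic. It therefore restates that test. Batch numbers are shared by the arms per the labels. Knockdown cells labelled as batch 1 repeated in the sequencing of batch 2 were counted in knockdown batch 1. The 2 libraries of a batch deviated from their arm means with correlations of 0.0551, -0.00369 and -0.00190. A fit with a replicate block for batch is given for TM7SF2, ACLY, KLK3 and KLK2 and in the counts of calls. Shares of cells are described without a test, since an exact permutation test of 3 against 3 cannot go below p = 0.1. Named were SULT2B1, all 26 members and up to 2 genes of each related list with the smallest p. The fits were also run on simulated counts in which all genes shared the same dispersion, unlike real genes. No result here rests on that run. Gene positions come from GENCODE 29 and promoters from RefSeq (GRCh38.p14); where a gene had several windows, that with the most matches was shown. Python 3.11.15, numpy 2.4.6, pandas 2.3.3, scipy 1.17.1 and matplotlib 3.10.9 were used. The members and lists were chosen with earlier results of these data known.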

Additional observations from a re-analysis of the deposited data

How the results depend on the processing

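TM7SF2 was the member that changed its call. The number of members higher in knockdown was 1 (TM7SF2) with DESeq2 and with no filter on low counts, and 0 in every other fit, and the number lower was 0 throughout. For the related lists it was 8 with DESeq2, 1 with no filter and 1 without cells over 20% mitochondrial reads, against 0. All genes changed numbered 158, but 38 with the replicate block, 1902 with DESeq2, 309 with no filter and 46 to 69 when 1 library was left out. The replicate block changed no call of a member. The median log2 fold change of the members, 0.18, ranged from 0.08 to 0.28 when a library was left out. Their median batch 3 difference, 0.66, was 0.61 without the cells of high mitochondrial share and 0.52 to 0.66 when a library of batch 1 or 2 was left out. Members whose detection share separated the arms numbered 3 (22.4% of all genes did so), but 7 after thinning to 100000 reads (22.6%), 6 at a minimum of 5 reads (23.4%) and 5 without cells of high mitochondrial share (20.8%). The cause of these shifts was not tested. Of SULT2B1, the members and the related genes named, 42 in all, DESeq2 added 9 calls that edgeR did not make. DESeq2 called 8.83% of all genes with an adjusted p. The related genes were named for their small p, so the 9 calls cannot be weighed against that share. For ACLY the adjusted p fell under 0.05 with no filter (0.0358) and without the cells of high mitochondrial share (0.0424). With 3 libraries per arm, a common dispersion of 0.497 limits what can be detected, and scarce genes such as MVD and MVK rest on few cells.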
